A study of Homo sapiens with 36 samples.

Results

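The MYC network transcription factors are 10 genes chosen by name: MYC, MYCN, MYCL, MAX, MNT, MXD1, MXD3, MXD4, MXI1 and MGA. All 10 stand in the K562 degron table of 60642 genes and in the HEL table of 57820 genes, and 9 of them (all but MYCN) stand in the LDB1 table of 13707 genes. The study measured poly(A) RNA in leukemia lines in which 1 member of the LMO2, LDB1 and TAL1 complex was lost, to ask which transcripts depend on that complex. K562 (24 libraries) comes from chronic myeloid leukemia and has erythroid features. Parental cells were grown beside a line called LMO2 control and beside LMO2 degron cells whose labels say rep 1 or rep 2, taken here for 2 separate degron lines. Each of the 4 lines was sampled before dTAGv1 (day 0) and after 1 and 4 days of dTAGv1, at 750 uM in the labels' words, and each line and day has a bio rep 1 and a bio rep 2 library. dTAGv1 is a small molecule that joins a tagged protein to a ubiquitin ligase, so that the tagged protein is broken down. The sources used here do not give what the LMO2 control line carries or whether a degron line is 1 clone. A further 3 K562 libraries carried a control shRNA, LDB1 shRNA 1 or LDB1 shRNA 2. HEL, an erythroleukemia line, was electroporated with a non-targeting siRNA pool or with TAL1 siRNA pool 1 or pool 2 (3 libraries each, bio reps 1 to 3).

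MYC, MYCN and MYCL are basic helix-loop-helix leucine zipper proteins that bind DNA as partners of MAX, mostly at the E-box CACGTG, and raise the transcription of genes for growth, ribosome production and metabolism. MXD1, MXD3, MXD4, MXI1 and MNT pair with the same MAX, occupy similar sites and recruit the SIN3 corepressor, so that the balance of MYC and these antagonists sets the output of shared target genes. MGA, a very large protein, also binds MAX and works in a Polycomb complex. In blood precursors MYC keeps cells dividing, and it declines while antagonists of the MXD family rise as cells mature.

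The K562 degron libraries held 17197077 to 26321588 reads, estimated back from FPKM, and those of HEL 15869619 to 27029836 counts, while no depth is known for the LDB1 set. LMO2 RNA ran from 31.2 to 46.6 FPKM in parental cells, from 212 to 443 in the LMO2 control line and from 128 to 271 in the degron lines, and a degron acts on the protein, so RNA does not test its loss. LDB1 RNA fell in the degron lines by day 4 (-0.89 ± 0.17, limma adjusted p = 0.002). TAL1 RNA fell in HEL with both pools (log2 change -1.38 and -1.31, edgeR adjusted p = 5.41e-06 and 1.03e-05). With LDB1 shRNA 1 and shRNA 2, LDB1 RNA stood at 13.3% and 14.9% of the control shRNA library. In the same libraries LMO2 RNA stood at 33.7% and 35.3% of control, and TAL1 RNA at 102% and 101%. All 8 erythroid and leukemia line markers reached 1 FPKM, CPM or TPM in each set. Their summed level was 659 to 972 FPKM in the control lines on day 4 and 281 to 315 in the degron lines. In HEL it was 4998 to 5102 CPM in non-targeting cells against 2753 to 3213 with pool 1 and 3200 to 3627 with pool 2. High genes such as TFRC (up to 431 FPKM) weigh most in the K562 sum. In the HEL sum HBG2 was the highest gene (up to 2412 CPM), and that sum also holds TAL1, the siRNA target. All 8 lay below 0 with both HEL pools. There edgeR called 5 lower with pool 1 and 4 with pool 2, beside 1.65% and 0.563% of all genes called lower. By day 4 limma found 3 of the 8 lower in the degron lines at an adjusted p under 0.05, beside 8.18% of all genes called lower. These were KLF1 (-3.02 ± 0.20, adjusted p = 7.56e-07), GATA1 (-0.86 ± 0.13, adjusted p = 0.000308) and TFRC (-0.97 ± 0.23, adjusted p = 0.00757). KLF1 was called lower on day 1 too (-1.82 ± 0.20, adjusted p = 0.00403). EPOR was higher on day 4 (0.74 ± 0.20, adjusted p = 0.0185), while the other 7 lay below 0. Of 12 markers of other cell types, MS4A1 (B cells) was at 0 in every degron-set and HEL library, and KRT18 and EPCAM (epithelium) gave most of the remaining signal in K562. The summed level of those 12 was 81.7 to 114 FPKM in the control lines (parental and LMO2 control) on day 4 and 41.5 to 49.6 in the degron lines. The part of either marker sum in the results was not tested. In bulk RNA of this kind, fewer cells of a type and less RNA per cell cannot be told apart.

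MYC was the highest member in the control lines and had the largest change of the 9 members tested. It stood there at 64.4 ± 8.06 FPKM (mean ± SD over 12 libraries of 2 lines and 3 days). MAX followed at 10.1 ± 1.13, and then MXD1 at 8.57 ± 4.74, MXI1 at 7.58 ± 2.48 and MXD4 at 6.45 ± 1.95, which overlap in their ranges. MGA stood at 4.93 ± 0.692, MXD3 at 3.97 ± 1.44, MNT at 3.07 ± 0.393 and MYCL at 3.03 ± 0.858, again with overlapping neighbours. MYCN was nearly silent, at 0 to 0.0305 FPKM in all 24 libraries, which amounts to 0 to 2 reads, and it was not tested in K562. FPKM are scaled to gene length, so these levels can be set against each other.

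Before any dTAGv1, MYC was already lower in the degron lines. Parental cells held 70.0 and 73.1 FPKM on day 0 (bio reps 1 and 2) and the LMO2 control line 68.3 and 61.9. Degron line 1 held 33.9 and 34.5 and degron line 2 held 34.7 and 29.97. The 4 degron libraries lay close together and below all 4 control libraries. The log2 difference of (FPKM + 1) between degron and control lines on day 0 was -1.02 ± 0.16 (limma, error is the SE here and at each log2 change below, adjusted p = 0.000349). A gene is called here at an adjusted p under 0.05, corrected over all 15348 genes tested in that comparison. MYC was the only one of the 9 tested members called on day 0, beside 16.8% of all genes called in that comparison and 6.14% called lower. The tag and other differences between the lines cannot be told apart in this comparison.

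With dTAGv1, MYC fell further. After 1 day degron line 1 held 9.80 and 16.3 FPKM and line 2 held 8.08 and 11.4, that is 38.1% and 30.2% of each line's day 0 mean. After 4 days line 1 held 6.81 and 7.85 FPKM and line 2 held 4.86 and 5.96, or 21.4% and 16.7% of day 0. Parental cells went to 52.9 and 72.6 on day 1 and 71.0 and 68.5 on day 4, and the LMO2 control line to 48.5 and 68.1 and then 58.3 and 59.6. No degron library after dTAGv1 came near the lowest control library, and each line was lower on day 4 than on day 1 in both bio reps.

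The degron-specific change subtracts the control lines' mean change since day 0 from the degron lines' mean change. It was -1.32 ± 0.22 for MYC on day 1 (adjusted p = 0.0399) and -2.14 ± 0.22 on day 4 (adjusted p = 2.15e-05). The background for these calls is 0.0782% of genes on day 1 (12 of 15348; 0.0261% higher and 0.0521% lower) and 19.8% on day 4 (3040). Within bio rep 1 alone the change was -1.39 on day 1 and -2.28 on day 4, and within bio rep 2 it was -1.24 and -2.005. Same-numbered libraries deviated together, and with the bio rep number as a block the day 1 adjusted p was 0.00535, in a fit that called 1.09% of genes. The unblocked day 1 call was lost in 12 of 16 fits that left out 1 library (change -1.15 to -1.49, adjusted p 0.0163 to 0.136). It held only without bio rep 1 of the parental or LMO2 control line on day 1, or without bio rep 2 of either degron line on day 1, and it was also lost against parental cells alone (adjusted p = 0.23) or the LMO2 control line alone (0.211), and with degron line 1 alone (0.43) or line 2 alone (0.148). With the block it was called in 16 of 16 such fits (adjusted p 0.00299 to 0.0253). The day 4 change was called in 16 of 16 fits with and without the block. The degron lines did not differ detectably in their MYC change, with line 2 minus line 1 at -0.28 ± 0.31 on day 1 and -0.30 ± 0.31 on day 4 (limma, adjusted p = 1 for both). That comparison called 0.013% of genes by day 4 (0.00652% in each direction, 0.0261% with the block), no member among them.

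**Figure D1:**
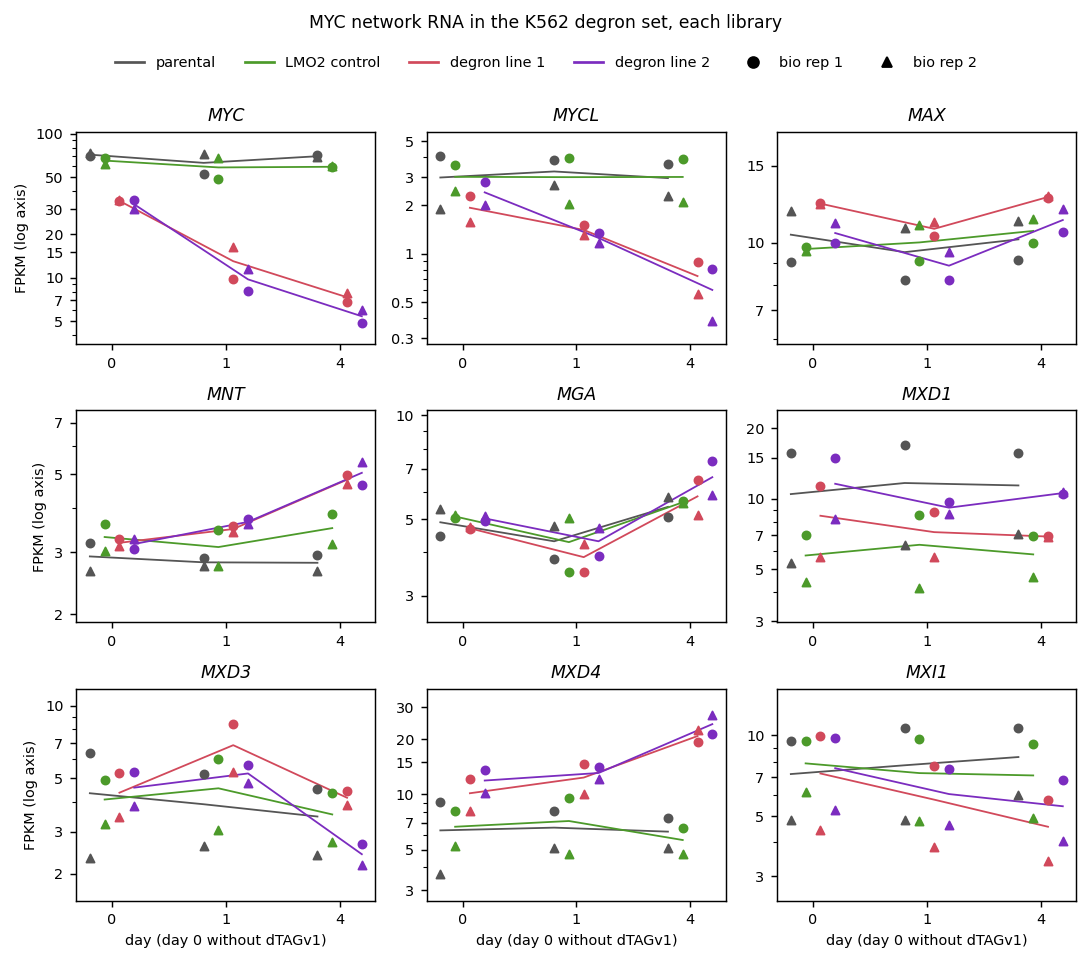
Each panel plots 1 gene in FPKM on a log axis against the day, with a circle for bio rep 1, a triangle for bio rep 2 and a line through the mean of each of the 4 lines. MYC and MYCL end lower and MXD4 and MNT higher on day 4 in both degron lines, while MXD1, MXD3 and MXI1 are mostly higher in bio rep 1.

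MYCL, the family member first found amplified in lung cancer, stood far lower than MYC and fell by day 4. On day 0 it was at 4.06 and 1.90 FPKM in parental cells, 3.57 and 2.44 in the LMO2 control line, 2.29 and 1.58 in degron line 1 and 2.81 and 2.01 in degron line 2. The degron lines lay inside the control range on day 0 for the most part, and bio rep 1 was above bio rep 2 in each line. By day 4 line 1 held 0.897 and 0.560 FPKM and line 2 held 0.810 and 0.386, against 3.62, 2.29, 3.91 and 2.10 in the control lines. On day 4 no degron library overlapped a control library. The degron-specific change was -0.48 ± 0.31 on day 1 (adjusted p = 0.891) and -0.93 ± 0.31 on day 4 (adjusted p = 0.0476). With the block the day 4 value was called in 16 of 16 leave-one-out fits (adjusted p 0.000176 to 0.00158), and the day 0 difference of -0.31 was called too (adjusted p = 0.0405), though in only 1 of 8 leave-one-out fits (adjusted p 0.0119 to 0.178). The blocked fits of all libraries called 35.6% of all genes on day 4 and 30.8% on day 0. Without the block the day 4 call of MYCL rests near its threshold. It was lost in 12 of 16 leave-one-out fits (adjusted p up to 0.108), held only without parental day 0 bio rep 1, degron line 2 day 4 bio rep 1, or bio rep 2 of the parental or LMO2 control line on day 4, and was lost with no filter on low values (adjusted p = 0.108), against either control line alone (0.124 and 0.149) and with either degron line alone (0.243 and 0.0694).

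MAX, the shared partner, gave no call. It ran from 8.21 to 11.8 FPKM in the 12 control-line libraries and from 10.6 to 12.8 in the degron lines on day 4. Its degron-specific change was -0.16 ± 0.15 on day 1 (adjusted p = 0.967) and 0.02 ± 0.15 on day 4 (adjusted p = 0.941), a value that turned to -0.02 when the libraries were rescaled by a trimmed mean. MYC stood at 5.26 to 7.78 times the MAX level in the control lines on day 4 and at 0.458 to 0.614 times in the degron lines. On day 0 the degron lines stood at 2.71 to 3.48 times, between those ranges.

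MXD4, an antagonist expressed as cells stop dividing and differentiate, had the largest positive change of the 9 members on day 4. On day 0 it stood at 9.04 and 3.68 FPKM in parental cells, 8.07 and 5.25 in the LMO2 control line, 12.1 and 8.16 in degron line 1 and 13.6 and 10.2 in degron line 2. On day 1 the degron lines held 14.6, 10.1, 14.1 and 12.1. On day 4 they held 19.3 and 22.4 (line 1) and 21.4 and 27.0 (line 2), and the control lines held 7.41, 5.12, 6.52 and 4.75. Every degron library on day 4 was above the highest of the 12 control-line libraries, 9.62 FPKM. In line 1 the day 4 mean was 2.05 times and in line 2 it was 2.03 times that of day 0.

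Whether MXD4 was called depended on the block. The degron-specific change on day 4 was 1.05 ± 0.37 (adjusted p = 0.0592), with 0.88 within bio rep 1 and 1.21 within bio rep 2. The day 0 difference was 0.72 ± 0.26 (adjusted p = 0.0735). With the block the day 4 change was called (adjusted p = 0.00559, and 0.00109 to 0.0155 in 16 leave-one-out fits), as was the day 0 difference (adjusted p = 0.00723). Those blocked fits called 35.6% of all genes on day 4 and 30.8% on day 0. Leaving out 1 library without the block gave a call once on each day, without parental day 0 bio rep 2 for the day 4 change (adjusted p = 0.0135) and without parental day 0 bio rep 1 for the day 0 difference (0.0148). On day 1 the degron-specific change was 0.12 ± 0.37 (adjusted p = 0.998).

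MNT, the broadly expressed MAX partner that opposes MYC in dividing cells, rose on day 4. The degron lines held 3.26, 3.11, 3.06 and 3.26 FPKM on day 0 and 4.96, 4.68, 4.67 and 5.41 on day 4. Control lines on day 4 held 2.94, 2.65, 3.85 and 3.17, all below the degron libraries of that day. The degron-specific change was 0.19 ± 0.12 on day 1 (adjusted p = 0.891) and 0.49 ± 0.12 on day 4 (adjusted p = 0.0107), with 0.49 within bio rep 1 and 0.50 within bio rep 2. It was called in 16 of 16 leave-one-out fits but not against the LMO2 control line alone (adjusted p = 0.0748) or with degron line 1 alone (0.068). On day 0 the lines differed by 0.03 ± 0.09 (adjusted p = 0.884), or -0.01 after the same rescaling.

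MXI1, MXD1 and MXD3 gave no call without the block, and neither did MGA. MXI1, which carries the SIN3 contact typical of the family, held 5.75, 3.41, 6.86 and 4.05 FPKM in the degron lines on day 4 and 10.6, 6.005, 9.26 and 4.945 in the control lines. Its degron-specific change on day 4 was -0.47 ± 0.51 (adjusted p = 0.564). With the block it was called at an adjusted p of 0.00542, in a fit that called 35.6% of all genes. Bio rep 1 held 5.75 to 10.7 FPKM of MXI1 and bio rep 2 held 3.41 to 6.18, ranges that barely overlap. MXD1, an early marker of blood cell maturation, ran from 6.94 to 17.0 FPKM in bio rep 1 and from 4.16 to 10.7 in bio rep 2, and its degron-specific value on day 4 was -0.23 ± 0.52 (adjusted p = 0.801). MXD3, which is unusual in the family for being made in dividing cells, held 8.43, 5.30, 5.70 and 4.77 FPKM in the degron lines on day 1 and 4.44, 3.85, 2.66 and 2.17 on day 4, with changes of 0.35 ± 0.39 (adjusted p = 0.985) and -0.19 ± 0.39 (adjusted p = 0.78). MGA held 6.51, 5.12, 7.37 and 5.85 FPKM in the degron lines on day 4 and 5.06 to 5.78 in the control lines, a change of 0.17 ± 0.16 (adjusted p = 0.501).

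Of the 9 tested members, then, 1 rose (MNT) and 2 fell (MYC and MYCL) on day 4, beside 11.6% of all genes called higher and 8.18% called lower. The members' median change was -0.19 and that of all tested genes 0.06. With the block 2 were called higher and 3 lower, in a fit that called 35.6% of all genes (3080 higher and 2391 lower of 15348). In the control lines alone no member was called between day 0 and days 1 or 4. The limma test called 0 of all genes in those comparisons, where 657 (day 1) and 509 (day 4) genes had an unadjusted p under 0.05, none of them a member.

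**Figure D2:**
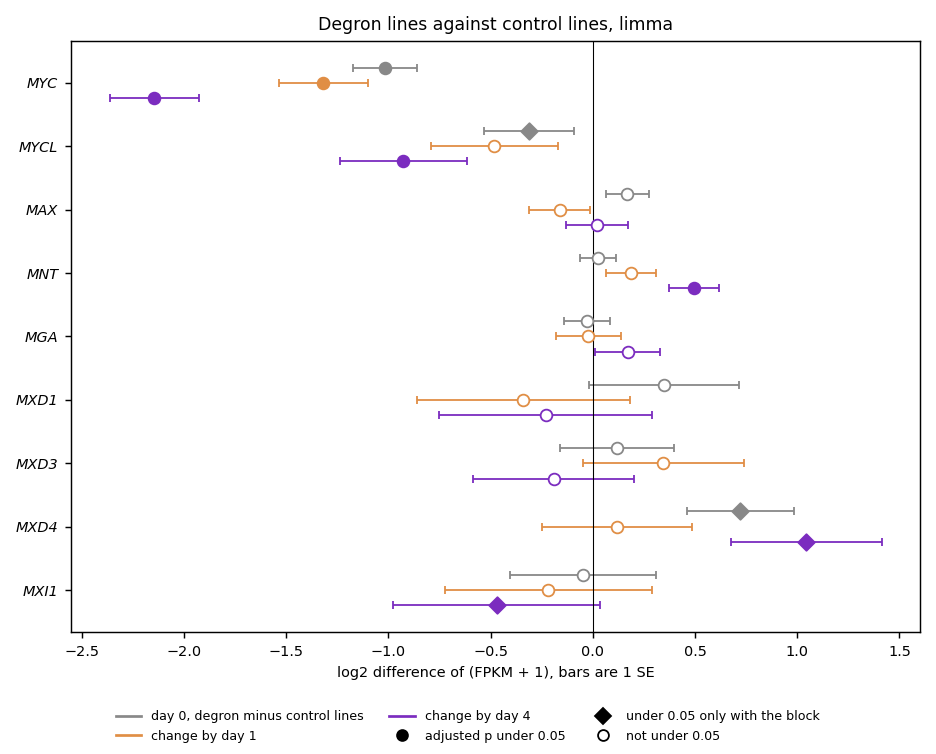
The log2 difference of (FPKM + 1) with its SE is plotted for 9 genes on day 0 (degron minus control lines) and as the degron-specific change by days 1 and 4. Filled circles mark an adjusted p under 0.05 and diamonds one under 0.05 only with the bio rep as a block. MYC lies at -1.02, -1.32 and -2.14, and MXD4 reaches 1.05 on day 4.

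The make-up of the network RNA shifted from MYC towards MXD4. In the control lines MYC made up 46.96% to 65.9% of the summed FPKM of the members over all days. In the degron lines it made up 35.0% to 44.3% on day 0, 13.0% to 26.5% on day 1 and 6.97% to 11.6% on day 4. MXD4 made up 3.32% to 9.39% in the control lines and 28.3% to 36.8% in the degron lines on day 4, where it stood at 2.84 to 4.53 times the MYC level. Set against the summed level of the 6 other MAX partners (MXD1, MXD3, MXD4, MXI1, MNT and MGA), MYC had a median ratio of 1.95 in the control lines on day 4, 0.781 in the degron lines on day 0, 0.254 on day 1 and 0.125 on day 4. The summed partners stood at 25.8 to 46.3 FPKM in the control lines and 46.3 to 55.2 in the degron lines on day 4. On day 0 the degron lines held 29.5 to 51.7. From day 0 to day 4 bio rep 1 went from 46.6 to 47.9 in line 1 and from 51.7 to 53.4 in line 2. Bio rep 2 went from 29.5 to 46.3 and from 35.9 to 55.2, so the rise was mainly in bio rep 2. These shares are RNA levels and describe the libraries, with no test of their own.

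**Figure D3:**
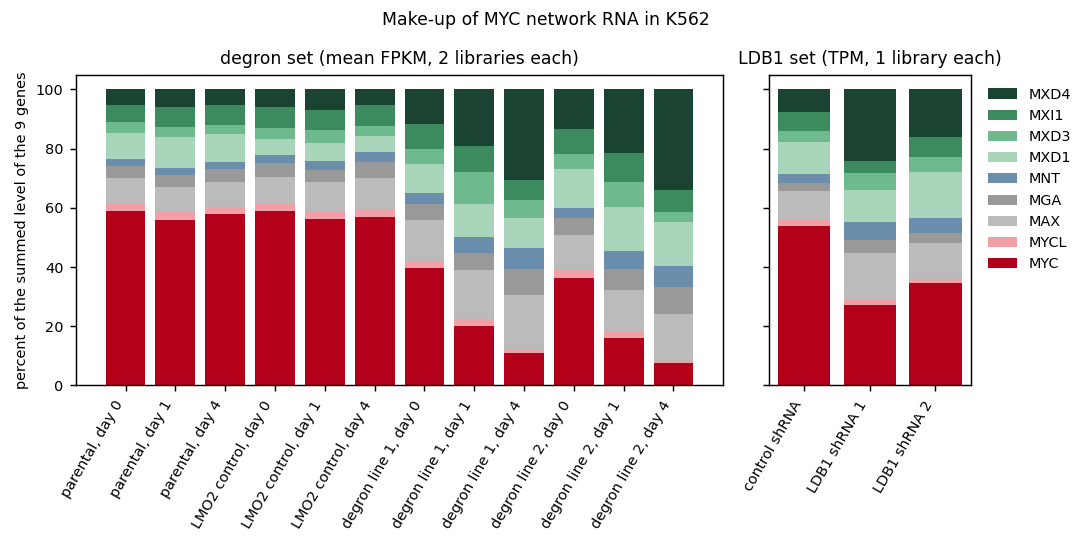
Stacked bars give the share of each gene in the summed level of the 9 genes, from mean FPKM of 2 libraries for the degron set and from TPM of 1 library for the LDB1 set. The dark red MYC share shrinks and the dark green MXD4 share grows in the degron lines by day and in both LDB1 shRNA libraries.

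The promoters of MNT and MYCL, called on day 4 beside MYC, and of MXD4, called with the block, are printed because they hold different E-boxes. They are the 250 bases before the start of the gene in RefSeq (GRCh38.p14), 5′ to 3′ on the gene's own strand, with capitals on every match to the E-box CACGTG bound by MYC and MAX, to the E-box CAGNTG bound by TAL1 with E proteins, and to the GATA site GATAA, searched on both strands. MXD4 is at chr4:2262110-2262359 on the minus strand, MNT at chr17:2401061-2401310 on the minus strand, and MYCL at chr1:39901918-39902167 on the minus strand.
MXD4: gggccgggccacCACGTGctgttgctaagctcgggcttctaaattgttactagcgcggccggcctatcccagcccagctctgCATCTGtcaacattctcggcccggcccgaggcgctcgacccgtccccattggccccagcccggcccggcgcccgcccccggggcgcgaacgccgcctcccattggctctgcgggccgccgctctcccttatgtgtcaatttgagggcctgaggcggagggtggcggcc
MNT: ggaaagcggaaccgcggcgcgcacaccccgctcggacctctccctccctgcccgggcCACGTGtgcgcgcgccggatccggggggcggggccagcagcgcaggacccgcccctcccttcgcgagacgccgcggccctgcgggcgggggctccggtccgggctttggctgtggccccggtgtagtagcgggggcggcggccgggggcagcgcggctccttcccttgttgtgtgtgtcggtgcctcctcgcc
MYCL: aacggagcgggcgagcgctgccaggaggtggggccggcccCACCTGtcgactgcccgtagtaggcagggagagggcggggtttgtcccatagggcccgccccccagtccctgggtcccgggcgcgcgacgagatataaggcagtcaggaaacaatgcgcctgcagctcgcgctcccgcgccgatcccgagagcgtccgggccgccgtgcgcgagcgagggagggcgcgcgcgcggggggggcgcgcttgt
CACGTG begins at base 13 of the MXD4 window and at base 58 of the MNT window. It is in no window of the other 7 matched members, and 6.34% of all 35116 windows of this length hold it. CAGNTG, read as CATCTG or CACCTG on the shown strand, begins at base 83 for MXD4 and base 41 for MYCL, and is also in windows of MXD1, MXD3 and MXI1 (42.5% of all windows). GATAA is in windows of MAX and MXD1 (20.4%). The matching overlaps no other motif in the 3 sequences, 9 of the 10 members matched the table, MYC did not, and a match is a description of the letters only.

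In HEL, the member that rose with both TAL1 pools was MYCN, the family member of early neural tissue that was near 0 in K562. Non-targeting libraries held 155, 160 and 245 MYCN counts, pool 1 held 321, 329 and 329, and pool 2 held 356, 337 and 281. Scaled to library size (TMM), these are 5.82, 6.83 and 10.5 CPM for the non-targeting pool, 14.4, 14.7 and 15.5 for pool 1 and 14.2, 17.2 and 17.2 for pool 2. All 6 TAL1 libraries were above all 3 non-targeting ones. MYCN rose by a log2 change of 0.95 ± 0.19 with pool 1 (edgeR adjusted p = 0.0144) and 1.07 ± 0.19 with pool 2 (adjusted p = 0.0177), a rise to 1.92 and 2.10 times the non-targeting mean. It was the only member called in either comparison, beside 4.22% of 16688 genes called with pool 1 (2.56% higher and 1.65% lower) and 1.05% with pool 2 (0.491% higher and 0.563% lower). With the block these shares were 17.3% and 10.2%, with 3 and 4 members called. Both pools share the non-targeting libraries, so the comparisons are not independent.

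The MYCN calls were near their threshold. Without non-targeting bio rep 2 the adjusted p was 0.0658 for pool 1 and 0.0782 for pool 2. It was 0.0528 and 0.0664 without bio rep 2 or 3 of pool 1, and 0.0945 and 0.0866 without bio rep 2 or 3 of pool 2, and with only the 2 groups compared pool 2 gave 0.0655. With the bio rep as a block both were called in 6 of 6 leave-one-out fits (adjusted p up to 0.000554). The antisense gene MYCNOS, with 3 to 37 counts a library, had log2 changes of 0.76 ± 0.62 with pool 1 and 1.016 ± 0.62 with pool 2 and did not pass the test. The sources used here do not say whether counting used strand, so reads of MYCN and MYCNOS cannot be told apart where the genes overlap.

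MYC was the highest member in HEL too and did not pass edgeR's unblocked test of all libraries. Non-targeting libraries held 589, 687 and 669 CPM, pool 1 held 546, 530 and 527 and pool 2 held 532, 534 and 596. Pool 1 was below all non-targeting libraries, and pool 2 overlapped them by 1 library. The log2 change was -0.28 ± 0.08 with pool 1 (adjusted p = 0.0724) and -0.23 ± 0.08 with pool 2 (adjusted p = 0.26), values of 82.4% and 85.5% of the non-targeting mean. With the block both were called (adjusted p = 0.000967 and 0.0103), though pool 2 kept that call in only 3 of 6 leave-one-out fits. Without the block, pool 1 was called once non-targeting bio rep 1 was left out (adjusted p = 0.0381) and with DESeq2 (0.0406). With bio reps 2 and 3 only, chosen after seeing the data, edgeR called MYC with both pools without the block. The changes were -0.34 with pool 1 (adjusted p = 9.08e-05) and -0.25 with pool 2 (adjusted p = 0.005).

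MAX differed between the 2 TAL1 pools. It held 172, 195 and 199.6 CPM in non-targeting cells, 194, 228 and 210.4 with pool 1 and 142, 148 and 152 with pool 2. Pool 2 lay below every other library. Against the non-targeting pool the log2 change was 0.16 ± 0.09 with pool 1 (adjusted p = 0.375) and -0.36 ± 0.09 with pool 2 (adjusted p = 0.0866). The change with pool 2 was called with the block (0.00015), with DESeq2 (0.0169) and with no filter on low counts (0.04). It was also called with bio reps 2 and 3 only (8.37e-05). Between the pools MAX was lower with pool 2 by -0.52 ± 0.09 (adjusted p = 0.00795), the only member called there, beside 2.76% of all genes called (1.08% higher and 1.68% lower, 14.6% in all with the block). The call was lost without bio rep 2 of pool 1 (0.058) or of pool 2 (0.0544) and was kept in 6 of 6 fits with the block.

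The antagonists gave no call in HEL in edgeR's unblocked fit of all libraries. Without the block, DESeq2 called MXD4 (-1.04, adjusted p = 0.0153) and MXD3 (0.54, adjusted p = 0.0448) between the pools. With bio reps 2 and 3 only, chosen after seeing the data, edgeR called MXD1 with pool 2 (adjusted p = 0.0123), MXD3 between the pools (0.0456), and MGA with pool 1 (0.00932) and between the pools (0.0033). MXD1 held 28.2, 36.2 and 37.0 CPM in non-targeting cells, 32.6, 38.4 and 41.7 with pool 1 and 41.5, 46.3 and 47.0 with pool 2. Every pool 2 library was above the non-targeting ones, with a log2 change of 0.41 ± 0.13 (adjusted p = 0.193; 0.00126 with the block). MXD4 was among the lowest members here, with 19 to 78 counts a library. It held 3.49, 3.48 and 2.83 CPM with pool 1, 1.597, 1.996 and 1.16 with pool 2 and 1.69, 2.60 and 2.14 in non-targeting cells, and neither pool passed the test (0.61 ± 0.27, adjusted p = 0.254, and -0.42 ± 0.28, adjusted p = 0.622). MXI1 was lowest in bio rep 1 of each group (9.17, 8.60 and 6.87 CPM) and at 13.8 to 16.8 in the other libraries. MGA with pool 1 was at 203, 191.5 and 192 CPM against 186, 172 and 158 (0.18 ± 0.10, adjusted p = 0.345; 0.0277 with the block, kept in 1 of 6 leave-one-out fits, 0.00778 to 0.195). Between the pools, MXD1 (0.26 ± 0.13, adjusted p = 0.356) and MGA (-0.19 ± 0.10, adjusted p = 0.366) passed with the block (0.0334 and 0.0253), MXD1 in 0 of 6 leave-one-out fits (0.0502 to 0.195) and MGA in 2 of 6 (0.00634 to 0.189). MNT, at 23.0 to 31.7 CPM, and MXD3, at 6.27 to 12.2, did not pass the test with either pool. MYCL had 2 to 20 counts a library.

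Per kilobase of exon (lengths from GENCODE 29), the order of levels in non-targeting HEL cells was MYC at 196 to 229 CPM per kilobase, MAX at 38.7 to 45.1, MGA at 8.95 to 10.5 and MXD1 at 4.44 to 5.83. MXI1 (1.99 to 3.64), MNT (2.63 to 3.15), MYCN (2.24 to 4.04) and MXD3 (1.87 to 1.92) overlapped or nearly so, and MXD4 (0.240 to 0.369) and MYCL (0.0590 to 0.148) were lowest. MYC made up 75.4% to 76.3% of the members' summed level there, 68.1% to 71.3% with pool 1 and 73.1% to 75.0% with pool 2. Its ratio to the 6 other MAX partners was 9.05 to 9.41, 6.85 to 7.63 and 7.02 to 7.92 in the 3 groups, so both TAL1 groups lay below the non-targeting one in each library.

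**Figure D4:**
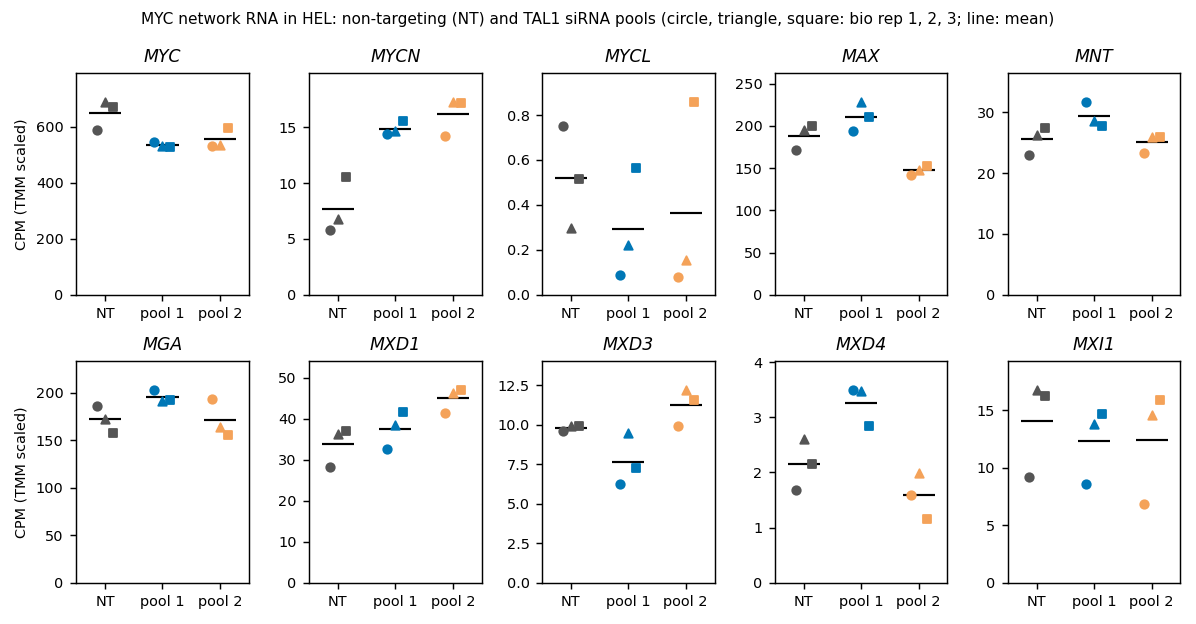
Each panel shows 1 gene in HEL in CPM scaled by TMM, with each of 3 libraries a group as a point and the group mean as a line. MYCN is higher in all 6 TAL1 libraries, MAX is lowest with pool 2, and MXI1 is lowest in bio rep 1 (circles) of every group.

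Knockdown of LDB1 in K562 gave values in the direction of the degron set for MYC, MYCL, MNT and MXD4, with 1 library a group and so no test and no replicate check. MYC stood at 294 TPM with the control shRNA, 119 with LDB1 shRNA 1 and 179 with shRNA 2, or 40.4% and 60.8% of control. MYCL stood at 13.5, 7.97 and 8.68 TPM. MXD4 stood at 42.1, 106 and 84.3 TPM, 2.53 and 2.005 times control, and MNT at 16.9, 25.4 and 25.2 TPM, 1.503 and 1.49 times. Each of these 4 members lay on the same side of control with both shRNAs, MYC and MXD4 farther with shRNA 1.

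Of the other 5, MAX, MXD3 and MGA lay above control with both shRNAs, MXI1 lay below it with both, and MXD1 differed in sign. MGA and MXI1 thus had the sign of their day 4 degron-specific changes (0.17 and -0.47). MXD3 had the opposite sign (-0.19), and the day 4 value of MAX was near 0 (0.02). MAX stood at 51.4, 68.5 and 61.8 TPM, MXD3 at 21.3, 25.0 and 27.3, and MGA at 15.2, 20.4 and 18.6. MXD1 was at 57.5, 47.4 and 80.5 TPM, and MXI1 at 34.8, 17.7 and 33.4, so MXI1 was far below control only with shRNA 1. As log2 ratios of (TPM + 1), MYC was at -1.30 and -0.71, MYCL at -0.70 and -0.59, MNT at 0.56 and 0.55, and MXD4 at 1.32 and 0.99. No member reached a log2 ratio of 1 in size with 1 sign in both shRNA libraries, a mark that 11.2% of 12445 genes reached (8.94% higher, 2.21% lower). The median of all genes in these ratios was 0.18 and 0.13, and the ratios are read against that shift. Rescaling the libraries by a trimmed mean moved MYC to -1.496 and -0.86, MNT to 0.37 and 0.415, MXD4 to 1.13 and 0.84, and MXD3 with shRNA 1 from 0.22 to 0.04, with no member changing sign.

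**Figure D5:**
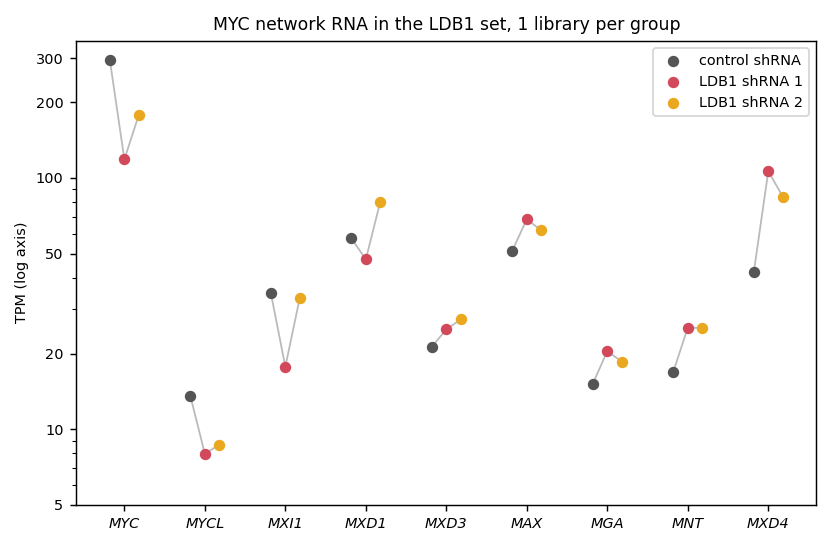
The TPM of 9 genes (log axis) is plotted for the control shRNA library and both LDB1 shRNA libraries, 1 library each, so no error can be drawn. MYC stands at 294, 119 and 179 and MXD4 at 42.1, 106 and 84.3.

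Genes known to be induced by MYC were lower in the degron lines as a group. This list and those below were chosen with earlier results of these data known, so their counts are descriptive. Of 26 such genes tested, 10 fell and none rose on day 4, beside 8.18% of all genes called lower, and the median change was -0.73 against 0.06 over all genes. FBL, a nucleolar enzyme of ribosomal RNA methylation, held 237 to 261 FPKM in the control lines on day 4 and 54.0 to 96.5 in both degron lines (-1.35 ± 0.15, adjusted p = 3.68e-05). It was lower on day 0 already, at 143 to 221 FPKM against 202 to 272 (-0.43 ± 0.11, adjusted p = 0.0108). SHMT2, a mitochondrial enzyme of one-carbon metabolism (-1.09 ± 0.15, adjusted p = 0.000241), ENO1, a glycolytic enzyme (-1.19 ± 0.18, adjusted p = 0.000362), and MIR17HG, the host of the miR-17 to 92 cluster (-1.56 ± 0.28, adjusted p = 0.00124), fell as well. On day 1 all 26 lay below 0 (median -0.46), while limma called 0 of them, with 5 at an unadjusted p under 0.05 and 3 called with the block. On day 0 the degron lines were already lower for 8 of 26, beside 6.14% of all genes called lower, with CCND2, the cyclin D2 gene, chosen here after its values were seen, at 0.723 to 2.08 FPKM against 4.58 to 8.37 (-1.47 ± 0.12, adjusted p = 8.71e-07). With LDB1 shRNAs 23 of 26 were below 0 in both libraries and 2 passed the mark (median -0.60). The other 3 lay above 0 with shRNA 1 and shRNA 2: ENO1 (0.13 and 0.60), CCND2 (0.17 and 0.30) and LDHA (0.01 and 0.44). In HEL, NCL, a nucleolar protein, fell with pool 1 (-0.59 ± 0.14, adjusted p = 0.0366). None of 25 was called with pool 2 by edgeR, where 5 had an unadjusted p under 0.05 and 9 were called lower and 2 higher with the block.

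Genes that MYC is known to repress were mixed on day 4 and with HEL pool 1, and lay above 0 for the most part on day 0, with HEL pool 2 and with the LDB1 shRNAs. Of 8, only 4 were high enough to test in the degron set, where 2 lay above 0 and 2 below on day 4, and all 4 lay above 0 on day 0 with 1 called (median 0.31). CDKN1A, the cell cycle inhibitor p21, rose on day 4 (1.37 ± 0.35, adjusted p = 0.0123), when the control lines held 1.499 to 4.22 FPKM and the degron lines 12.7 to 27.9, and it was higher on day 0 already (1.00 ± 0.25, adjusted p = 0.011). GADD45A, a stress-induced gene, fell (-1.37 ± 0.20, adjusted p = 0.000304). In the LDB1 set 4 of 5 were above 0 with both shRNAs and 3 passed the mark (median 2.12 against 0.16 over all genes). CDKN1A stood there at 7.16 TPM with the control shRNA and at 139 and 141 with the LDB1 shRNAs. In HEL TGFBR2, a TGF-beta receptor (0.48 ± 0.10, adjusted p = 0.0201), and CDKN1B, the inhibitor p27 (0.42 ± 0.10, adjusted p = 0.032), rose with pool 1, while 3 of 6 lay below 0. With pool 2 all 6 lay above 0 (median 0.26) and edgeR called none, where 2 had an unadjusted p under 0.05 and 1 was called with the block. In edgeR's test of pool 2 against pool 1, TGFBR2 was lower with pool 2 (-0.43 ± 0.10, adjusted p = 0.0406). CDKN1A was higher with pool 2 in that test (0.99 ± 0.19, adjusted p = 0.0139), which called 2.76% of all genes. Of 12 genes of S phase and mitosis, 10 fell on day 4 in the degron set, beside 8.18% of all genes called lower. Their median was -0.96 against 0.06 over all genes, and none was called on day 1. In the LDB1 set none of 11 such genes passed the mark. There 5 lay above 0 and 5 below 0 with both shRNAs (median -0.16 against 0.16 over all genes). In HEL 3 (MCM5, MCM2 and BUB1) fell with pool 1. With pool 2 edgeR called none of 12, where 2 had an unadjusted p under 0.05 and 2 were called lower with the block. Between the pools BUB1 (0.51 ± 0.08, adjusted p = 0.00652), MCM5 (0.46 ± 0.09, adjusted p = 0.0171) and MCM2 (0.39 ± 0.09, adjusted p = 0.0333) were higher with pool 2. Their part in the lower MYC-induced genes was not tested.

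Partners and regulators of the network moved in both directions. Of 14 coactivator and elongation genes, 4 fell on day 4: RUVBL2 (-1.10 ± 0.22, adjusted p = 0.00267), RUVBL1 and ACTL6A, which are subunits of the chromatin complexes that MYC recruits, and ZBTB17, the MIZ1 protein through which MYC represses genes. RUVBL2 ran from 23.3 to 46.4 FPKM in the degron lines and from 70.4 to 92.6 in the control lines. Before dTAGv1 ZBTB17 was higher in the degron than in the control lines (0.32 ± 0.07, adjusted p = 0.00607). It also fell with HEL pool 1 (-0.34 ± 0.09, adjusted p = 0.0497) but was not called with pool 2, and it was higher with pool 2 than with pool 1 (0.44 ± 0.09, adjusted p = 0.0209). Of 14 genes of MYC protein turnover, AURKA, a kinase that shields MYCN from breakdown (-1.01 ± 0.11, adjusted p = 3.53e-05), and PPP2R5A, a phosphatase subunit (-0.70 ± 0.18, adjusted p = 0.0133), fell, and FBXO28 (0.48 ± 0.12, adjusted p = 0.00874) and GSK3B, the kinase that marks MYC for breakdown (0.36 ± 0.09, adjusted p = 0.0154), rose. PPP2R5A was higher in the degron than in the control lines before dTAGv1 (0.58 ± 0.13, limma adjusted p = 0.00527), and AURKA was lower (-0.33 ± 0.08, adjusted p = 0.00882). In the LDB1 set the log2 ratios with shRNA 1 and shRNA 2 were 0.13 and 0.27 for AURKA and 1.00 and 1.04 for PPP2R5A. They were -0.60 and -0.78 for FBXO28 and 0.65 and 0.61 for GSK3B. Of these genes only GSK3B had the sign of its day 4 change there.

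Of 12 genes of the SIN3 corepressor used by MXD and MNT proteins, SIN3B (0.48 ± 0.12, adjusted p = 0.0107) and HDAC1 (0.43 ± 0.13, adjusted p = 0.0291) rose on day 4 and RBBP7 fell (-0.41 ± 0.13, adjusted p = 0.0356). SIN3B held 14.02 to 16.1 FPKM in the degron lines and 7.70 to 9.12 in the control lines, and it was already higher on day 0 (0.31 ± 0.08, adjusted p = 0.021). Of 12 genes of the MGA Polycomb complex, PCGF6 (-0.65 ± 0.13, adjusted p = 0.00241) and TFDP1 (-0.87 ± 0.26, adjusted p = 0.0276) fell, and RING1 (0.46 ± 0.11, adjusted p = 0.0101) rose with HDAC1, which both lists hold. Of the MLX branch of the network, MLXIP, a glucose-sensing partner of MLX, fell on day 4 (-0.37 ± 0.12, adjusted p = 0.0358), 1 of 3 tested. MLXIP was already lower on day 0 (-0.28 ± 0.08, limma adjusted p = 0.0269), as was PCGF6 (-0.37 ± 0.09, adjusted p = 0.00974). These counts stand beside the 19.8% of all genes called on day 4, and nothing particular to the lists is read from them.

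Over the 12 line-by-day means of log2(FPKM + 1), the genes most like MYC among 7403 with a mean of at least 5 FPKM were LYAR (Pearson r = 0.996), SLC43A3 (0.994), GNL3 (0.992), SLC19A1 (0.991) and MIR17HG (0.990). LYAR, a nucleolar protein, ran from 38.2 to 63.9 FPKM in the control lines and from 9.52 to 14.8 in the degron lines on day 4. The genes most like MXD4 were OST4 (0.995) and NCSTN (0.991), those most like MNT were RP2 (0.978) and CES2 (0.977), and those most like MYCL were FGFR3 (0.987) and EIF4EBP1 (0.986). The remaining members had best values of 0.924 to 0.967 (UBN1 for MAX at 0.927, CREBZF for MGA at 0.967, ZNF706 for MXD1 at 0.952, XRCC1 for MXD3 at 0.924 and STAT5B for MXI1 at 0.959). The 12 means share lines, days and bio reps, so these values describe likeness over these samples only. PVT1, a noncoding neighbour of MYC, was singled out after its values were seen. It was also lower in the degron than in the control lines before dTAGv1 (-0.55 ± 0.08, limma adjusted p = 0.000166). Its degron-specific change was -0.44 ± 0.11 on day 1 (adjusted p = 0.184) and on day 4 (adjusted p = 0.0111). Its means on days 0, 1 and 4 were 0.761, 0.351 and 0.141 FPKM in degron line 1 and 0.532, 0.244 and 0.142 in line 2. At such levels log2(FPKM + 1) understates the change. PVT1 stood at 22.3, 6.19 and 8.34 TPM in the control, shRNA 1 and shRNA 2 libraries of the LDB1 set.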

How the data were processed

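The deposited FPKM of the K562 degron set, the deposited counts per gene of HEL and the deposited TPM of the LDB1 set were used as the authors made them. Per the submitters' processing notes, FastQC, STAR, featureCounts and hg19 were used, while versions, annotation and strand setting are not stated in what was used here. Per the labels' protocols, RNA was extracted with Trizol, K562 libraries were made by Azenta and HEL libraries by Novogene with an ABclonal kit. FPKM were tested with limma 3.58.1 (R 4.3.3) on log2(FPKM + 1), which understates changes of low genes, with 12 line-by-day groups, a mean-variance trend and robust variances. Genes needed 1 FPKM in at least 2 of 24 libraries, and 15348 passed, 9 members among them. Reads behind the FPKM were recovered with GENCODE 29 gene lengths, and 70.1% to 72.0% of low values were whole within 0.01 read. For HEL, edgeR 4.0.16 was run on the counts (quasi-likelihood test, TMM, expression filter, 16688 genes, all 10 members), with DESeq2 1.42.0 as an alternative. TPM were set side by side as log2(TPM + 1) ratios with no test, among 12445 genes with a highest TPM of at least 5, and counted from a log2 ratio of 1. All p-values were adjusted by Benjamini-Hochberg over all genes tested, at 0.05. The scripts were tested on simulated data.

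Groups follow the labels. No source says that libraries came from separate cultures, so p-values measure the spread between these libraries, which may be technical. In K562, deviations from group means correlated positively between same-numbered libraries in all 132 pairs (0.119 to 0.662). The libraries of a K562 group deviate by equal and opposite amounts, so each correlation is repeated across the bio rep numbers. Differently numbered pairs there are the mirror image (-0.662 to -0.119) and add no evidence. In HEL all 9 same-numbered pairs correlated positively (0.171 to 0.561, median 0.224). Differently numbered HEL pairs ran from -0.445 to 0.357, so the ranges overlap. The bio rep numbers were taken to pair the libraries, from the data and not from a label. This pairing is less clear in HEL, and the blocked HEL calls rest on it. The main fits carry no block. Other alternatives were another pseudocount, no filter on low values, rescaling, either control or degron line alone and leaving out each library. The members and the 10 lists were chosen with earlier results of these data known. Named genes are all members, the targeted genes, up to 4 called genes per list by adjusted p, and the genes most correlated with each member. Promoter letters come from the RefSeq table of GRCh38.p14 and no coordinate was converted.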

Additional observations from a re-analysis of the deposited data

Results flagged for a closer look

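The effects of the 2 TAL1 siRNA pools in HEL differed for MAX in the direct test, while MXD3 and MXD4 lay on opposite sides of the non-targeting pool and missed the threshold of edgeR's test without the block. MAX was lower with pool 2 than with pool 1 by -0.52 on the log2 scale in a direct test (edgeR adjusted p = 0.00795), and with the block that test gave a call in 6 of 6 fits that left out 1 library. MXD3 was on opposite sides in each bio rep, with a mean log2 difference of (CPM + 1) of -0.34 for pool 1 and 0.17 for pool 2, and the direct test of pool 2 against pool 1 gave 0.55 ± 0.17 (edgeR adjusted p = 0.114, 0.0448 with DESeq2, and 0.00997 with the block, kept in 3 of 6 fits). MXD4 was on opposite sides too, with means of 0.45 for pool 1 and -0.29 for pool 2, and the direct test gave -1.03 ± 0.28 (edgeR adjusted p = 0.0706, 0.0153 with DESeq2, and 0.0102 with the block, kept in 4 of 6 fits). MXD4 had 19 to 78 counts a library, so counting error bears on its values. Groups held 1 to 3 libraries, so single libraries were not checked for standing apart.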

How the results depend on the processing

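Of the alternatives run for single members, 1821 kept the direction and side of the threshold, 101 passed it where the main value did not, 44 lost it and 11 moved, with no called value changing sign. With the replicate block, genes called went from 12 to 167 (day 1), 3040 to 5471 (day 4, with 5 members), 2576 to 4729 (day 0, with 3 members), 2 to 4 (degron line 2 against 1, day 4), 704 to 2888 (pool 1, 3 members), 176 to 1694 (pool 2, 4 members) and 461 to 2431 (pool 2 against pool 1, 5 members), and it ended no member's call. Against parental cells alone 0 genes were called on day 1 (0 members) and 1763 on day 4. Against the LMO2 control line alone the counts were 1 (0 members), 1675 (1 member) and 1626 on days 1, 4 and 0. Degron line 1 alone gave 0 (0 members), 1398 (1 member) and 1197, and line 2 alone gave 5 on day 1 (0 members). Without a filter, 40 genes were called on day 1, 23 and 23 in the control lines on days 1 and 4, 10 and 59 between the degron lines on days 1 and 4, 1084 with pool 1, 418 with pool 2 (2 members) and 758 between the pools. A pseudocount of 0.1 left 1 gene between the degron lines on day 4 and 1 member counted in the LDB1 set. A lower minimum ratio there counted 3426 genes and 3 members. DESeq2 called 1186 (2 members), 452 (2 members) and 914 (3 members) genes in the 3 HEL comparisons. Fitting only the 2 groups compared gave 100 for pool 2 (0 members). HEL bio reps 2 and 3 only, chosen after seeing the data, gave 2705 (3 members), 1652 (4 members) and 2591 (3 members). Leaving out 1 library gave 1 to 12 genes on day 1 (0 to 1 members), 2369 to 3313 on day 4 (2 to 3), 1742 to 2544 on day 0 (1 to 2), 0 to 2 and 0 in the control lines on days 1 and 4 (0 members), 0 and 1 between the degron lines (0 members), 279 to 722 with pool 1 (0 to 2), 35 to 296 with pool 2 (0 to 1) and 128 to 592 between pools (0 to 1). The cause was not tested. Fewer libraries were fitted where a line, group or bio rep was left out. Depth limits MYCL and MXD4 in HEL and MYCN in K562 most.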
